A study of Sus scrofa domesticus with 28 samples.

Results

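Late scar of the red Duroc pig was compared with control skin of the same animals. The late group held the 8 biopsies whose titles mark them as late scar, and the control group held the 4 biopsies whose titles mark them as control skin, out of 28 biopsies in the study. The late biopsies comprised 2 each of sham-treated hyperpigmented, pressure-treated hyperpigmented, sham-treated hypopigmented and pressure-treated hypopigmented scar, and the control skin carried no treatment label. All came from the skin of juvenile male pigs of the red Duroc swine scar model, and the titles name 2 animals, 49 and 50, with 4 late and 2 control biopsies each. No genetic change or other agent is named for any group. The other 16 biopsies were early and mid scar. In late scar every sham biopsy came from the left side and every pressure biopsy from the right side, so that treatment and side cannot be told apart, whereas control skin was taken from both sides. The labels do not say how old the scars were, how deep the wounds or biopsies went, or how pressure was applied. Each scar title also holds a number without a unit, which rises from early to mid to late scar. Among late biopsies this number is mostly higher in animal 49 than in animal 50. Its part in the differences between the animals was not tested. Control titles carry an unexplained tag, BL, and do not say when control skin was taken. The part of sampling time or pig age in the differences between late scar and control skin was not tested. Since only 2 pigs were sampled, the p-values rest on variation among biopsies and say nothing of how far other pigs would vary.

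The red Duroc pig forms thick scars after deep wounds and is used as a model of human hypertrophic scar. Scar is built by fibroblasts that lay down collagen and proteoglycans in place of the wounded dermis, while new vessels and immune cells enter the tissue. Hair follicles, apocrine glands and sebaceous glands grow from the epidermis during development and are generally not rebuilt in the scars of adult mammals. Pigment is made by melanocytes, which sit in the epidermis and in hair follicles and pass melanin to keratinocytes.

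Each biopsy was hybridised to its own 2-colour Agilent pig array, with the biopsy RNA in Cy5 and a universal pig reference RNA in Cy3. The values below are log2 ratios of biopsy to reference, so that a value above 0 means more signal from the biopsy than from the reference, and levels of different genes are not compared with each other. Control values are listed in the order animal 49 right, 49 left, 50 left and 50 right. Differences are late scar minus control skin ± SE from one limma fit with the animal as a block, and a gene is said to have risen or fallen where its Benjamini-Hochberg adjusted p over 18765 tested features was under 0.05. In whole biopsies, fewer cells of a type and less RNA per cell cannot be told apart.

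The 2 groups of arrays also differed in technical measures. Of 43603 probes, 13707 to 20526 were detected per late array in the Cy5 channel, that is, marked by the scanner program as well above background, and 18075 to 24298 per control array. The late arrays with the fewest such probes were the sham hypo biopsy of animal 50 (13707) and its pressure hypo biopsy (14784). The median log2 ratio of the 320 spike-in spots, which report control RNA added at labelling and not pig RNA, was 0.028 to 2.86 on late arrays and -0.628 to -0.104 on control arrays, without overlap. Of the marker genes of resident cells, those of fibroblasts (COL1A2, DCN, LUM) and endothelium (PECAM1, VWF, CDH5) were detected on every late and control array. The only keratinocyte marker measured, IVL, was detected on 7 of 8 late and 4 of 4 control arrays. The melanocyte genes TYR and TYRP1 were detected on 2 of 8 late and 4 of 4 control arrays. DCT, the other melanocyte marker measured, was detected on every late and control array. The B cell marker MS4A1 was not detected on every array of either group.

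Late scar differed from control skin over a large share of the transcriptome. Of 18765 features 7457 passed the test (39.7%), 4942 of them higher (26.3%) and 2515 lower (13.4%), and the median difference of all features was 0.10. Late and control arrays did not overlap for 3006 features (16%), with late scar higher in 1838 (9.79%) and lower in 1168 (6.22%). Of the 2515 features that fell, 2235 were detected on every control array and 321 on no late array. Among features with a gene symbol, 517 rose and 456 fell, and all 973 had the same sign in both animals. The calls and these signs come from the same arrays, so this agreement is no separate check. The split between directions depended on scaling: with each array centred on its median in place of loess, 1404 features were called higher and 5669 lower, and the median of all features was -0.10. In that setting 1145 of the 4942 higher and 2118 of the 2515 lower calls remained. With the spike-in ratio added to the model, 2834 features were called, 1767 higher and 1067 lower.

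The genes are described below by function, first those of glands, hair, epidermis, lipids and pigment, then those of immunity, vessels and matrix. The chart of calls by gene list sets each list's share of called members beside the share of all features. Lists and members were chosen with earlier results of these data known, so a large share is no separate support.

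**Figure D1:**
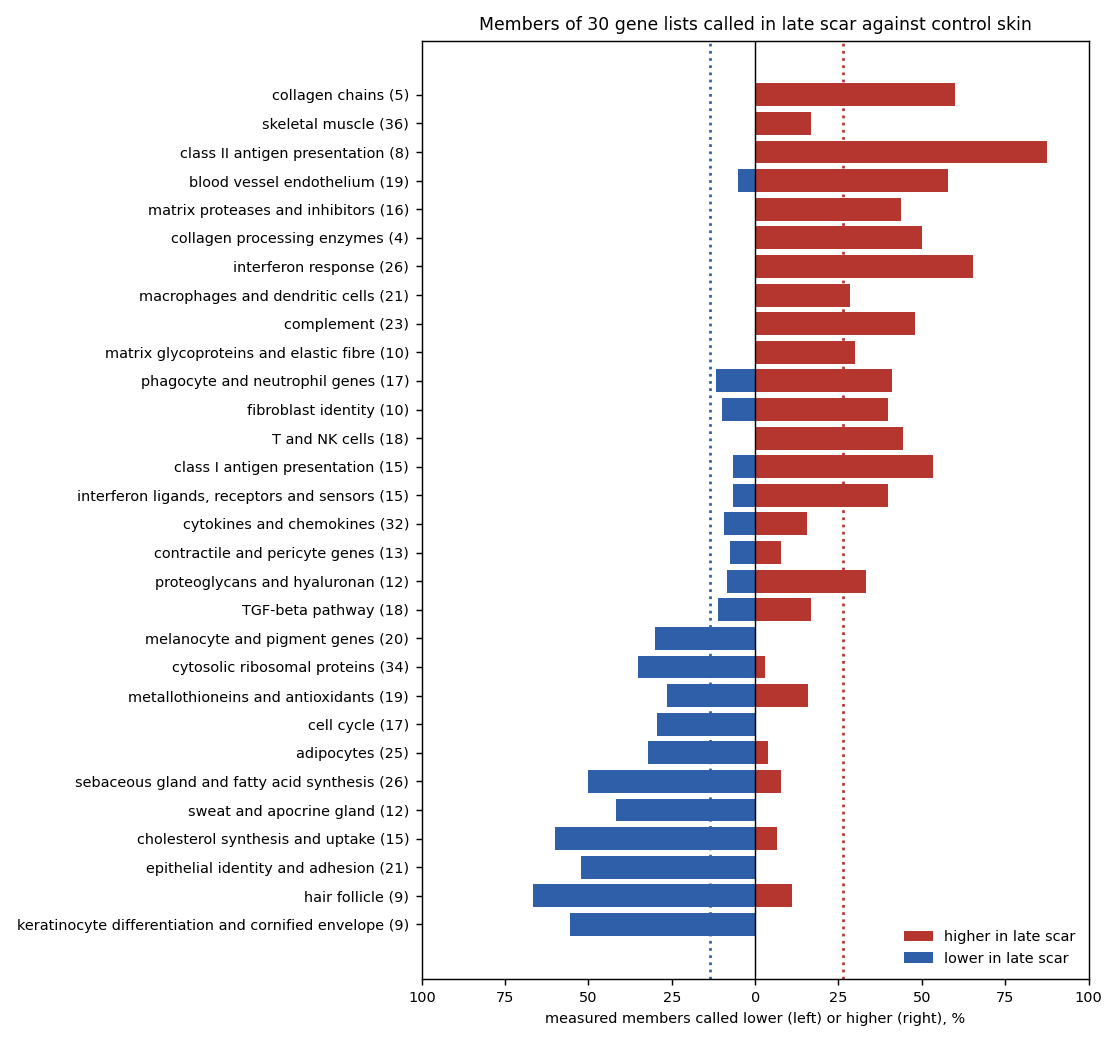
Share of the measured members of 30 gene lists called higher (red, right) or lower (blue, left) in late scar than in control skin, in percent, with the number measured in brackets. Dotted lines mark the shares over all 18765 features, 26.3% higher and 13.4% lower. Class II antigen presentation (7 of 8 higher) and hair follicle genes (6 of 9 lower) stand farthest out on either side.

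Products of the apocrine gland, the scent-associated sweat gland of hairy skin, fell far. Of 12 measured genes of the sweat and apocrine list 5 fell and 0 rose, and the list's median difference was -0.63, against 0.10 over all features. PHEROC encodes a subunit of pheromaxein, the steroid-binding protein of the pig that carries pheromones. Its log2 ratio was -2.4 to -1.41 (median -1.61) in late scar, against 5.63, 5.39, 6.07 and 5.51 in control skin. Not one late array detected PHEROC above background, all 4 control arrays did, and the groups lay far apart. PHEROC was at least 166-fold lower in late scar (adjusted p = 5.81e-07), the fold of the fitted ratios, and the Cy5 channel alone gave 230-fold. For a gene detected on no late array the smaller of these folds is given. The Cy5 fold sets the mean control signal against, on each late array, the lowest signal of any detected probe or the probe's own signal, whichever was higher. It comes from 1 colour and is open to dye bias, since no dyes were swapped. SCGB1D1, a secretoglobin, was also detected on no late array, at -2.32 to -1.22 (median -1.81) in late scar and 4.85, 4.58, 5.21 and 4.82 in control skin, and was at least 99.8-fold lower (adjusted p = 1.9e-06).

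Other secreted proteins followed. CRISP3, a cysteine-rich secretory protein, was detected on 0 of 8 late arrays and 4 of 4 control arrays and was at least 81.1-fold lower in late scar (adjusted p = 4.63e-06). The feature with the largest fall among those with a RefSeq symbol, LOC100158001, a protein-coding gene without a name in RefSeq, was likewise on 0 of 8 late arrays and was at least 181-fold lower (adjusted p = 1.15e-05). LTF, which encodes the iron-binding antimicrobial lactoferrin, had ratios of -0.50 to -0.098 (median -0.32) in late scar and 3.0, 2.84, 3.04 and 3.26 in control skin. LTF fell (-3.33 ± 0.48, adjusted p = 2.62e-05), and only 1 of 8 late arrays was above background. CA6, a secreted carbonic anhydrase, was 0.072 to 1.45 (median 0.62) in late scar and 4.17, 3.92, 3.62 and 4.31 in control skin, a difference of -3.31 ± 0.22 (adjusted p = 1.69e-09). CA6 was still detected on 5 of 8 late arrays, but no late array reached the lowest control array. AQP5, the water channel of sweat gland cells, fell less (-0.60 ± 0.18, adjusted p = 0.012), with 1 late array, sham hypo of animal 50, at 1.36 above all 4 controls. Its call was lost without the control left-side biopsy of animal 50 (adjusted p = 0.0617), and between 4 and 5 genes of the list were called lower when any 1 of the 12 arrays was left out.

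Hair follicle genes fell in parallel. Of 9 measured members 6 fell, 1 rose (CRYM, a thyroid hormone binding protein, 0.52 ± 0.14, adjusted p = 0.00528) and the median was -1.38. KRT31, a hair keratin, had the lowest p of any gene with a symbol. Its ratio was 0.067 to 0.85 (median 0.22) in late scar, against 4.46, 3.88, 4.17 and 4.21 in control skin (-3.89 ± 0.13, adjusted p = 2e-14). Only 1 late array, sham hyper of animal 50, had KRT31 above background. RLN2, the peptide hormone relaxin, was at -0.28 to 0.36 (median -0.14) in late scar and 4.04, 3.57, 4.07 and 2.9 in control skin and was at least 13.4-fold lower (adjusted p = 4.6e-12). LEF1, the transcription factor through which WNT signals act in the hair matrix, was -0.64 to 1.26 (median 0.70, 7 arrays) in late scar and 2.23, 2.04, 2.46 and 2.07 in control skin. LEF1 fell by 3.37-fold (-1.75 ± 0.27, adjusted p = 6.36e-05) and BMP4, a growth factor of the dermal papilla, by 2.61-fold (-1.39 ± 0.15, adjusted p = 3.47e-06, 7 late arrays). DAPL1 was -1.82 to 2.08 (median 0.25) in late scar and 4.92, 3.89, 4.38 and 4.22 in control skin (-4.22 ± 0.55, adjusted p = 1.01e-05). For KRT31, RLN2, LEF1, BMP4 and DAPL1 every late array lay below every control array. The sixth, CTNNB1, was 1.5-fold lower with overlapping groups (adjusted p = 0.0307) and lost its call in 5 of the 12 fits without 1 array, with adjusted p of 0.0674 to 0.152.

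Genes shared by epithelia fell as well. Of 21 measured genes of epithelial identity and adhesion 11 fell and 0 rose (median -0.78), and 20 of 21 differences were below 0. EPCAM, an epithelial adhesion molecule, was -3.54 to -1.78 (median -2.75) in late scar and -0.29, -0.79, -0.22 and -0.86 in control skin, and was 4.55-fold lower (-2.19 ± 0.30, adjusted p = 1.73e-05). Its 16 probes on the array all pointed down, though its call was lost without the cap on local backgrounds (-1.53, adjusted p = 0.0684). CDH1, the E-cadherin of epithelial junctions, was -1.71 to 0.64 (median -0.72) in late scar and 1.47, 1.6, 1.77 and 1.36 in control skin (-2.15 ± 0.32, adjusted p = 4.12e-05). FOXA1, a transcription factor of glandular epithelium, was not detected on any late array and was at least 6.84-fold lower (adjusted p = 3.47e-07). CLDN4, a tight junction claudin, was -0.25 to 0.25 (median -0.018) in late scar and 2.05, 1.67, 1.96 and 1.39 in control skin, a 3.39-fold lower level (-1.76 ± 0.15, adjusted p = 4.55e-08). PLET1, a surface protein that in mice marks hair follicle progenitors, was -1.19 to 2.56 (median -0.76) in late scar and 4.09, 4.0, 4.11 and 3.81 in control skin (-4.3 ± 0.42, adjusted p = 4.69e-07). The late sham hyper biopsy of animal 50 had the highest PLET1, EPCAM and KRT31 of the 8 late biopsies. FAM84A fell by 10.5-fold (-3.4 ± 0.50, adjusted p = 3.44e-05). On each late array the median of the 21 genes, relative to the control mean, was between -1.7 and -0.31, below the -0.11 to 0.18 of the control arrays.

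Genes of the surface epidermis fell in part, with a wide spread between late biopsies. Of 9 measured genes of keratinocyte differentiation 5 fell and 0 rose (median -1.43). CDSN, which encodes corneodesmosin, the glue protein of cornified cells, was 0.0019 to 0.65 (median 0.28) in late scar and 1.91, 1.49, 1.71 and 1.58 in control skin. It was 2.69-fold lower (-1.43 ± 0.14, adjusted p = 4.71e-07), with every late array below every control. JUP, the desmosome protein plakoglobin, was 0.12 to 2.16 (median 0.96) in late scar and 2.49, 2.68, 2.33 and 2.62 in control skin (-1.45 ± 0.34, adjusted p = 0.00208). IVL, the cornified envelope protein involucrin, was 0.49 to 2.59 (median 1.96) in late scar and 3.23, 2.95, 3.27 and 2.97 in control skin (-1.41 ± 0.40, adjusted p = 0.0077). The lowest IVL and JUP of all arrays were in the hyper scar of animal 49, sham and pressure. The IVL fall did not hold with the scanner program's processed signals (0.48, adjusted p = 0.563). SPRP, a small proline-rich cornified envelope precursor, ranged from 0.84 to 4.53 in late scar against 5.86, 5.84, 5.12 and 4.49 in control skin (-2.78 ± 0.95, adjusted p = 0.0251) and lost its call in 6 of 12 fits without 1 array (adjusted p 0.0525 to 0.0742). LY6G6D was near the floor on 7 late arrays (-0.16 to 0.40) and at 4.09 in the sham hyper biopsy of animal 50, inside the control range of 4.02 to 4.84 (-3.86 ± 0.50, adjusted p = 1.01e-05).

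Of 10 measured genes of activated keratinocytes 2 fell, AREG and TGFA, and 1 rose, the protease inhibitor PI3 (0.49 ± 0.16, adjusted p = 0.0208), which was detected on 1 of 8 late and 2 of 4 control arrays. Over all features 13.4% were lower and 26.3% higher. AREG and TGFA, ligands of the epidermal growth factor receptor, were not detected on any late array and were at least 4.28-fold and 1.96-fold lower (adjusted p = 2.02e-08 and 3.84e-06). HAS3, a hyaluronan synthase of epidermis, was -0.35 to 0.73 (median 0.012) in late scar and 1.64, 1.58, 2.4 and 1.24 in control skin (-1.64 ± 0.20, adjusted p = 5.18e-06). CCL28, a chemokine made by epithelia, was -0.41 to 2.07 (median 0.84) in late scar and 1.94, 2.13, 2.41 and 2.36 in control skin (-1.54 ± 0.35, adjusted p = 0.00163). Its highest late value was in the pressure hypo biopsy of animal 49, within the control range. IL1A, the interleukin 1 stored in keratinocytes, fell by 1.63-fold (-0.71 ± 0.13, adjusted p = 0.000213), and all 8 late arrays lay below all 4 controls.

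**Figure D2:**
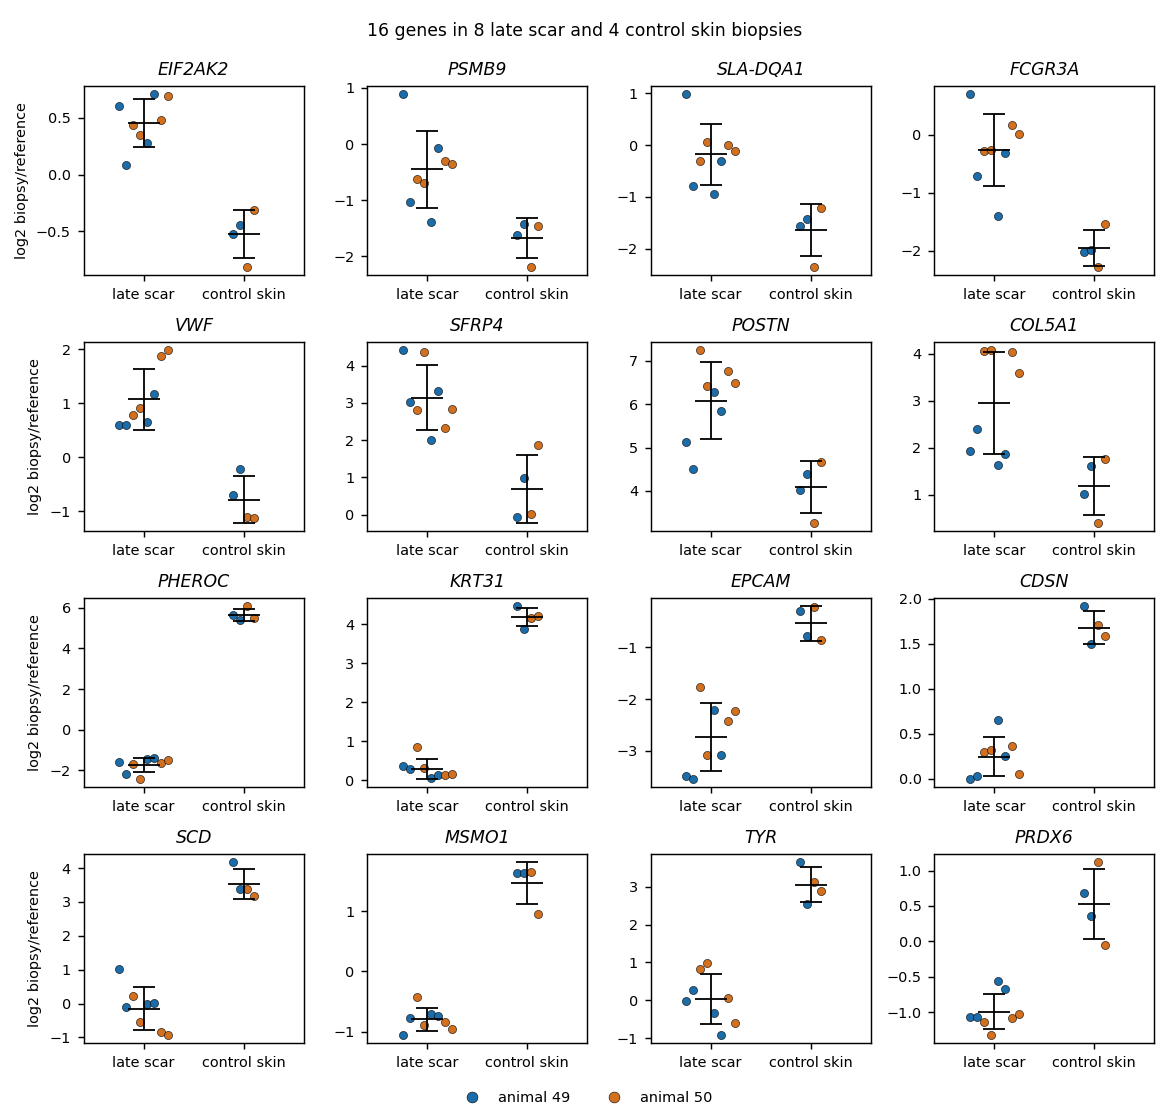
Log2 ratio of biopsy to reference RNA (y axis) for 16 genes in the 8 late scar biopsies (left) and the 4 control skin biopsies (right), coloured by animal. The long bar is the group mean and the whiskers are 1 SD. PHEROC, KRT31, SCD and MSMO1 show a wide gap between the groups, and COL5A1 and POSTN show late values that split by animal.

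Lipid synthesis fell in late scar. Of 26 measured genes of the sebaceous gland and fatty acid synthesis 13 fell and 2 rose (median -0.56), and of 15 genes of cholesterol synthesis and uptake 9 fell and 1 rose (median -0.65). SCD, the desaturase that makes monounsaturated fatty acids and is abundant in sebocytes, was -0.92 to 1.02 (median -0.065) in late scar, against 4.17, 3.38, 3.39 and 3.18 in control skin. SCD was 12.8-fold lower (-3.68 ± 0.19, adjusted p = 6.09e-11), all 9 of its probes pointed down and the groups were apart by more than 2 log2 units. FASN, the fatty acid synthase, was -0.12 to 1.5 (median 0.27) in late scar and 1.64, 1.48, 1.44 and 1.2 in control skin, a smaller fall of 1.98-fold (-0.99 ± 0.22, adjusted p = 0.00146). The late sham hypo (1.5) and pressure hyper (1.21) biopsies of animal 49 reached the FASN range of control skin. ACLY, which supplies the acetyl-CoA for both pathways, was 1.78-fold lower (-0.83 ± 0.16, adjusted p = 0.000397), and PLIN2, a lipid droplet coat protein, 2.27-fold lower (-1.18 ± 0.20, adjusted p = 0.000165). The calls of FASN, ACLY and PLIN2 were lost with the spike-in ratio in the model (adjusted p = 0.122, 0.117 and 0.151), where 4 of the 26 genes were called lower. The 2 genes that rose were the acyl-CoA synthetases ACSL4 (1.13 ± 0.22, adjusted p = 0.000557) and ACSL5 (0.66 ± 0.14, adjusted p = 0.00088). With median centring neither was called, and ACSL5 turned to -0.36.

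Among the sterol genes that fell, SQLE, squalene epoxidase, was -1.47 to -0.23 (median -0.83) in late scar and 1.25, 1.3, 1.33 and 0.69 in control skin (-2.01 ± 0.23, adjusted p = 3.35e-06). MSMO1, the sterol methyl oxidase, was -1.05 to -0.43 (median -0.81) in late scar and 1.63, 1.64, 1.65 and 0.95 in control skin, a 4.81-fold lower level (-2.27 ± 0.17, adjusted p = 1.66e-08). For both, the right-side control of animal 50 was the lowest control and still above every late array. FDPS, which makes farnesyl diphosphate, was -0.92 to -0.10 (median -0.35) in late scar and 1.86, 1.21, 1.49 and 0.69 in control skin (-1.72 ± 0.26, adjusted p = 4.48e-05). CYP51, the lanosterol demethylase, fell by 2.47-fold (-1.3 ± 0.18, adjusted p = 1.61e-05). Groups did not overlap for 8 of the 15 genes, and the list's median on each array was -1.1 to -0.50 in late scar and -0.34 to 0.13 in control skin. Leaving out any 1 array left 9 to 11 genes called lower. NPC2, which moves cholesterol out of lysosomes, was the 1 gene that rose (0.84 ± 0.28, adjusted p = 0.0238). Its call was lost in 4 of 12 fits without 1 array (controls 49 right and 50 left, late sham hyper of animal 49, late pressure hyper of animal 50), and it turned to -0.21 with median centring.

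Adipocyte genes fell in part, with a wide spread between late biopsies. Of 25 measured genes 8 fell and 1 rose (median -0.43, with -0.14 in animal 49 and -0.68 in animal 50). FABP4, the fatty acid binding protein of fat cells, was 3.17, 4.0 and 4.0 in 3 late biopsies of animal 49 (sham hyper, pressure hyper and sham hypo) and 0.25 to 1.48 in the other 5 late biopsies, against 4.57, 3.83, 3.93 and 3.89 in control skin (-2.07 ± 0.70, adjusted p = 0.0229). LIPE, the hormone-sensitive lipase, likewise was 0.99, 2.24 and 2.12 in those 3 biopsies and -1.06 to -0.44 in the other 5, against 2.16, 1.3, 1.19 and 2.63 in control skin (-1.59 ± 0.52, adjusted p = 0.0197). PNPLA2, the lipase that starts fat breakdown, fell by 1.92-fold (-0.94 ± 0.19, adjusted p = 0.000811), and PLIN1, the droplet coat of fat cells, by 1.84-fold (-0.88 ± 0.21, adjusted p = 0.00219). LIPA, the lysosomal lipase also found in macrophages, rose (1.2 ± 0.39, adjusted p = 0.0201). Without the right-side control of animal 50, 3 genes were called higher and 3 lower, and LIPE was not (adjusted p = 0.108). Without the left-side control of animal 50, 5 genes were called lower, with slide in the model 3, and with the spike-in ratio in the model 0. How much subcutaneous fat each biopsy held is not given in the labels, and its part in these values was not tested.

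Some pigment genes fell, and 4 of the 8 late biopsies were labelled hyperpigmented. Of 20 measured melanocyte and pigment genes 6 fell and 0 rose (median -0.075). TYR, tyrosinase, the first enzyme of melanin synthesis, was -0.91 to 0.98 (median 0.018) in late scar, against 3.65, 2.55, 3.12 and 2.89 in control skin. TYR was 8.09-fold lower (-3.02 ± 0.20, adjusted p = 2.59e-09), and no late array, hyper or hypo, came within 1 log2 unit of the lowest control. TYRP1, the next tyrosinase family enzyme, was -0.24 to 1.73 (median 0.13) in late scar and 2.96, 1.91, 2.73 and 2.12 in control skin (-1.97 ± 0.28, adjusted p = 2.23e-05). The highest late values of both were the 2 hyper biopsies of animal 50, which were also the only late arrays to detect them. RAB27A, the small GTPase that ties melanosomes to their transport motor, fell by 1.79-fold (-0.84 ± 0.15, adjusted p = 0.000205), its adaptor MLPH by 1.47-fold (-0.56 ± 0.15, adjusted p = 0.00501), and EDNRB, the endothelin receptor of melanocytes, by 1.7-fold (-0.77 ± 0.21, adjusted p = 0.00732). MLPH lost its call without the background cap (adjusted p = 0.128) and EDNRB with slide in the model (adjusted p = 0.0741). OCA2 was not detected on any late array, was at least 1.33-fold lower (adjusted p = 0.0176) and lost its call without the control 49 right or the control 50 left biopsy (adjusted p = 0.0897 and 0.103).

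Other pigment genes did not pass. DCT, dopachrome tautomerase, the third melanin enzyme, was 0.70 to 2.18 (median 1.17) in late scar and 1.01, 1.08, 0.88 and 0.87 in control skin (0.30 ± 0.22, adjusted p = 0.284), and it was detected on all 12 arrays. MITF, the regulator of melanocyte identity, was -0.48 to 1.18 (median -0.053) in late scar and 0.97, 0.51, 0.85 and 0.43 in control skin (-0.56 ± 0.25, adjusted p = 0.0788). MITF was called lower without the late sham hyper, the pressure hyper or the sham hypo biopsy of animal 49 (adjusted p = 0.0427, 0.0499 and 0.0379) and with median centring (-1.36, adjusted p = 0.00288). Within late scar, TYR was higher in hyper than in hypo biopsies (0.97 ± 0.24, adjusted p = 0.0233), with -0.02, 0.28, 0.82 and 0.98 in hyper and -0.91, -0.60, -0.34 and 0.06 in hypo scar, and was the only 1 of the 20 genes to pass.

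Interferon response genes were higher in late scar. Of 26 measured interferon response genes 17 rose and 0 fell, all 26 differences were above 0, and the median was 0.76, with 0.79 in animal 49 and 0.70 in animal 50. OAS2, which senses viral RNA, was -0.37 to 1.21 (median 0.39) in late scar and -1.24, -0.64, -1.55 and -0.38 in control skin (1.3 ± 0.23, adjusted p = 0.000217). EIF2AK2, the RNA-activated kinase PKR, was 0.084 to 0.71 (median 0.46) in late scar and -0.52, -0.44, -0.81 and -0.31 in control skin (0.98 ± 0.16, adjusted p = 0.000115). IRF9, a transcription factor of the type I response, was 1.67-fold higher (0.74 ± 0.13, adjusted p = 0.000152), without overlap. IFIT1, which binds foreign RNA, was -0.092 to 1.53 (median 0.50) in late scar and -0.35, 0.18, -1.33 and -0.39 in control skin (1.15 ± 0.20, adjusted p = 0.000166), with the late sham biopsies of animal 49 at 1.53 and 1.42 and its pressure hypo biopsy at -0.09. Leaving out any 1 array left 12 to 18 genes called, and with median centring 2 were called higher and 1 lower, IRF9 being at -0.01. Late sham scar alone gave 20 genes called higher (median 1.07) and late pressure scar alone 6 (median 0.45). In the test of pressure against sham, 0 of the 26 genes passed. Animal 49 alone gave 1 gene called higher and animal 50 alone 10.

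Of 15 measured interferon ligands, receptors and sensors 6 rose and 1 fell (median 0.34). IFNAR2, a type I receptor chain, was -1.89 to 0.22 (median -0.73) in late scar and -2.6, -2.45, -2.53 and -1.59 in control skin (1.51 ± 0.19, adjusted p = 8.98e-06). IFNAR2 was lower in late hyper than in late hypo biopsies (-1.19 ± 0.22, adjusted p = 0.0077), at -1.89 to -0.84 in hyper and -0.62 to 0.22 in hypo scar. IFNAR1, the other chain, rose by 1.32-fold (adjusted p = 0.0257). The chains of the interferon gamma receptor, IFNGR1 (0.81 ± 0.15, adjusted p = 0.000381) and IFNGR2 (0.97 ± 0.28, adjusted p = 0.00974), rose, as did the kinase JAK1 (0.68 ± 0.16, adjusted p = 0.00251). IFNGR1 turned to -0.08 and JAK1 to -0.41 with median centring, JAK1 also turned to -0.11 when the median of its 5 probes was used, and IFNAR1 lost its call without control 50 left (adjusted p = 0.136) and without the pressure hyper or the pressure hypo biopsy of animal 50 (adjusted p = 0.058 and 0.0596). MAVS, an adaptor of RNA sensing, was the 1 gene that fell (at least 1.37-fold, adjusted p = 0.0492) and it lost that call without the left-side control of animal 50 (-0.13, adjusted p = 0.415) and without any of 6 late arrays.

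Antigen presentation rose with it. Of 8 measured class II genes 7 rose and 0 fell (median 1.11), and of 15 class I genes 8 rose and 1 fell (median 0.41). Late sham scar alone gave 8 class II and 7 class I genes called higher, and late pressure scar alone 2 and 4. SLA-DQA1, a class II chain of the pig, was -0.95 to 0.98 (median -0.21) in late scar and -1.55, -1.43, -2.34 and -1.21 in control skin. It was 2.74-fold higher (1.46 ± 0.30, adjusted p = 0.00082), without overlap. SLA-DRA was -0.95 to 0.98 (median -0.076) in late scar and -1.3, -1.15, -2.49 and -0.63 in control skin (1.25 ± 0.31, adjusted p = 0.0034), and SLA-DMA, which helps to load peptides, was -0.96 to 0.35 (median -0.14) in late scar and -1.48, -1.25, -1.8 and -1.03 in control skin (1.23 ± 0.22, adjusted p = 0.000194). CD74, the invariant chain, rose by 1.85-fold (adjusted p = 0.00639), a call that was lost without the left-side control of animal 50 (adjusted p = 0.0572). PSMB9, a subunit of the immunoproteasome, which cuts peptides for class I, was -1.39 to 0.89 (median -0.50) in late scar and -1.62, -1.43, -2.19 and -1.46 in control skin (1.23 ± 0.27, adjusted p = 0.00149). B2M, the light chain of class I, was -1.34 to 1.09 (median -0.43) in late scar and -1.98, -1.63, -1.9 and -1.23 in control skin (1.34 ± 0.33, adjusted p = 0.0028). For SLA-DQA1, SLA-DRA, PSMB9 and B2M the highest array was the late sham hyper biopsy of animal 49. The class I chains SLA-3 (1.07 ± 0.19, adjusted p = 0.000231, 7 late arrays) and SLA-5 (0.97 ± 0.21, adjusted p = 0.00133) rose, and near-identical class I genes may share probes. CD1D, which presents lipids, was the class I list member that fell (-0.53 ± 0.14, adjusted p = 0.00633). With median centring 0 class II and 0 class I genes were called higher and 5 class I genes lower, SLA-3 being at -0.03 and SLA-5 at -0.13, whereas with the spike-in ratio in the model the list medians were 1.53 and 0.99.

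**Figure D3:**
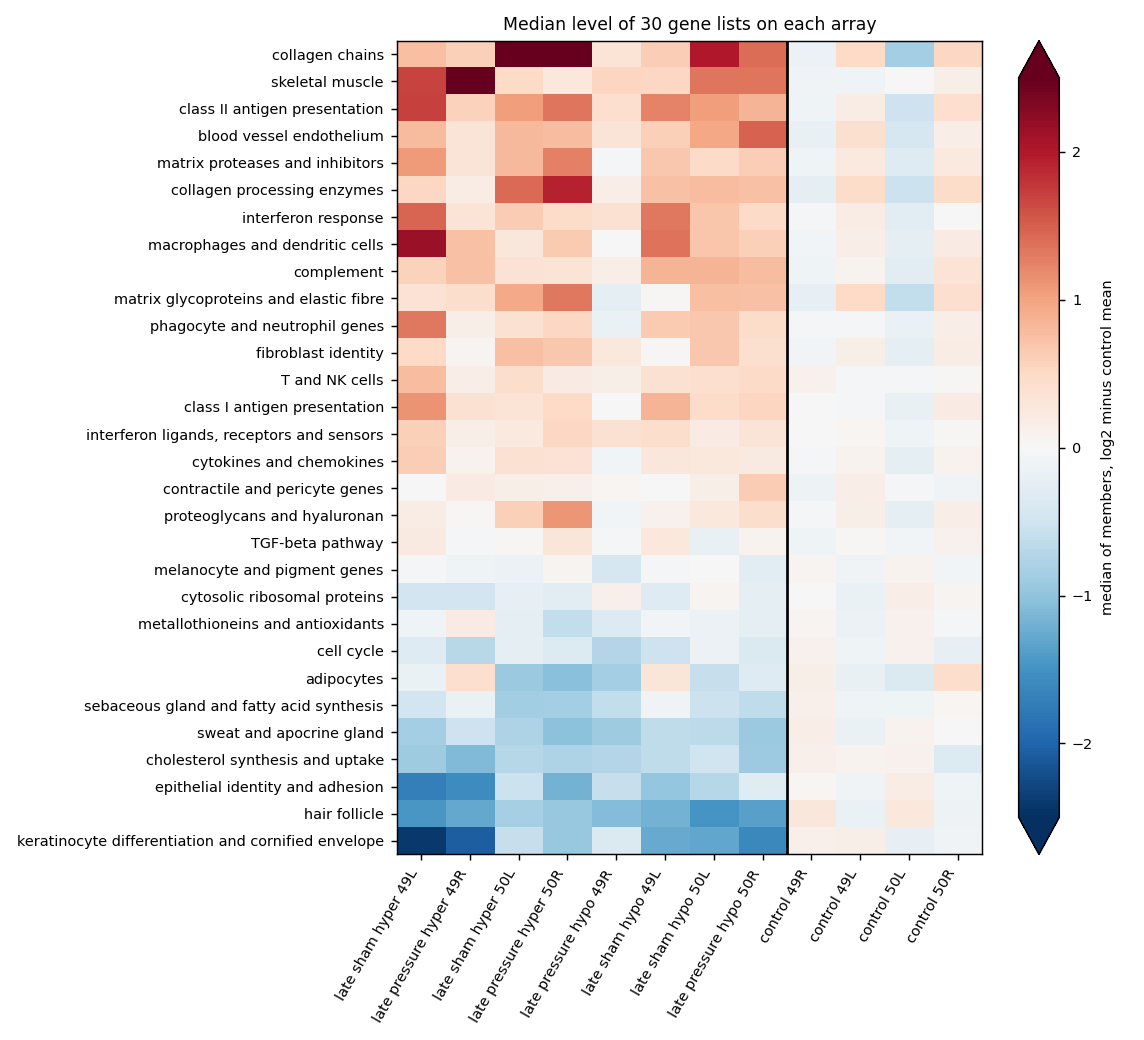
Median over the measured members of 30 gene lists on each of the 8 late arrays (left of the line) and 4 control arrays (right), as log2 ratio minus the control mean of each gene. Values beyond the colour scale are drawn in its end colour: the skeletal muscle list is at 5.76 in the late pressure hyper biopsy of animal 49, and the late collagen values of animal 50 exceed those of animal 49.

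Some myeloid genes rose in late scar, with a wide spread between biopsies, and the share called was near that of all features (26.3%) for macrophage genes. Of 21 macrophage and dendritic cell genes 6 rose and 0 fell (median 0.76), and of 17 phagocyte and neutrophil genes 7 rose and 2 fell (median 0.55), the 2 that fell being LTF and TLR4. FCGR3A, an antibody receptor of macrophages and NK cells, was -1.41 to 0.70 (median -0.27) in late scar and -2.02, -2.0, -2.28 and -1.53 in control skin. It was 3.24-fold higher (1.69 ± 0.26, adjusted p = 5.18e-05), without overlap and with similar sizes in both animals (1.58 in animal 49 and 1.81 in animal 50). ITGB2, the common leukocyte integrin chain, was -2.46 to 1.81 (median -1.34) in late scar and -3.02, -2.91, -3.07 and -2.52 in control skin (2.08 ± 0.66, adjusted p = 0.0165). CCR1, a chemokine receptor of myeloid cells, was -1.7 to 2.99 (median -0.77) in late scar and -2.13, -2.12, -2.48 and -2.46 in control skin (2.38 ± 0.85, adjusted p = 0.0301). The 2 left-side late biopsies of animal 49 were the highest for both genes, at 1.81 and 0.44 for ITGB2 and 2.99 and 2.21 for CCR1. C5AR1, the receptor of the complement peptide C5a (2.03 ± 0.70, adjusted p = 0.0267), and GP91-PHOX, the catalytic chain of the phagocyte oxidase (2.03 ± 0.73, adjusted p = 0.0326), were highest in those biopsies too. Calls depended on single arrays: CCR1 lost its call in 8 of 12 fits without 1 array (adjusted p 0.0516 to 0.0706), C5AR1 and GP91-PHOX in 6, TYROBP in 3 and ITGB2 and FCGR3A in 0. Without the late sham hyper biopsy of animal 49, 3 macrophage and 3 phagocyte genes were called, without the late sham hyper biopsy of animal 50, 13 macrophage genes, without the late pressure hypo biopsy of animal 49, 10, and with median centring 1 and 0. Without control 49 right 3 genes of each list were called, without control 50 left 3 macrophage and 4 phagocyte genes, without control 49 left or late pressure hypo of animal 50, 3 phagocyte genes, and without late sham hypo of animal 49, 4.

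Complement, cytokine and lymphocyte genes rose in part. Of 23 complement genes 11 rose and 0 fell (median 0.74). C2 was -1.14 to 0.15 (median -0.63) in late scar and -1.78, -1.38, -1.83 and -1.12 in control skin (1.02 ± 0.22, adjusted p = 0.00106), and C3, the central component, was -3.49 to -1.79 (median -2.74) in late scar and -4.17, -3.9, -3.73 and -3.48 in control skin (1.08 ± 0.31, adjusted p = 0.00901). CFB, of the alternative pathway, rose without overlap (0.95 ± 0.23, adjusted p = 0.00289), and SERPING1, the C1 inhibitor, rose by 1.93-fold (adjusted p = 0.00756). The number called was 6 without control 49 right, control 49 left or late pressure hypo of animal 50, 7 without control 50 left or late sham hypo of animal 50, and 0 with median centring, where CFB was at -0.15 and SERPING1 at -0.09.

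Of 32 cytokines and chemokines 5 rose and 3 fell (median 0.30), both smaller shares than over all features. CCL2, which draws monocytes, was 0.29 to 2.23 (median 1.12) in late scar and -1.04, 0.16, -1.0 and -0.32 in control skin (1.68 ± 0.40, adjusted p = 0.00234), and CCL19, which draws T cells and dendritic cells, was -0.31 to 1.46 (median 0.16) in late scar and -1.46, -1.12, -1.74 and -0.86 in control skin (1.57 ± 0.31, adjusted p = 0.000486). Both had every late array above every control. CXCL12 (1.05 ± 0.30, adjusted p = 0.00945), IL6 (1.12 ± 0.27, adjusted p = 0.00242) and the death ligand TNFSF10 (0.81 ± 0.21, adjusted p = 0.00432) also rose. CCL28, IL1A and IL27 fell, and IL27 lost its call without the left-side control of animal 50 (adjusted p = 0.0807). Of 18 T and NK cell genes 8 rose and 0 fell (median 0.42), but only 2 of the 8 were detected on all 12 arrays. CD3G, a chain of the T cell receptor complex, was -1.35 to -0.54 (median -1.02) in late scar and -1.36, -1.77, -1.63 and -1.49 in control skin (0.61 ± 0.17, adjusted p = 0.00707), above background on 3 of 8 late and 3 of 4 control arrays. The count of T and NK genes was 5 without control 49 left or late pressure hypo of animal 50 and 2 with slide in the model.

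Blood vessel genes rose in late scar. Of 19 measured endothelial genes 11 rose and 1 fell (median 0.85, with 0.60 in animal 49 and 1.06 in animal 50), and every late and control array detected all 11. VWF, the clotting factor carrier stored in endothelium, was 0.59 to 1.98 (median 0.85) in late scar, against -0.70, -0.21, -1.1 and -1.13 in control skin. VWF was 3.61-fold higher (1.85 ± 0.23, adjusted p = 8.57e-06), without overlap, and kept its call in every tested alternative but the fit on animal 49 alone (adjusted p = 0.0845). PECAM1, an endothelial adhesion molecule, was 0.89 to 2.38 (median 1.26) in late scar and -0.076, 0.43, -0.83 and 0.017 in control skin (1.47 ± 0.29, adjusted p = 0.000484), and CDH5, the cadherin of endothelial junctions, was 0.24 to 2.38 (median 1.0) in late scar and -0.39, -0.026, -1.47 and 0.15 in control skin (1.44 ± 0.29, adjusted p = 0.000664). Both were highest in the pressure hypo biopsy of animal 50. ANGPT2, released by activated endothelium, was 0.88 to 1.89 (median 1.47) in late scar and -0.26, 0.39, -0.53 and 0.22 in control skin (1.44 ± 0.21, adjusted p = 2.64e-05). SELP, the selectin that captures leukocytes, was -0.14 to 1.55 (median 0.78, 7 arrays) in late scar and -1.18, -0.61, -1.45 and -0.66 in control skin (1.69 ± 0.30, adjusted p = 0.000229). PROCR, the protein C receptor, was the member that fell, at 0.39 to 1.33 (median 0.89) in late scar and 2.1, 1.76, 2.1 and 1.95 in control skin (-1.1 ± 0.15, adjusted p = 1.75e-05). With median centring 3 genes and with the spike-in ratio in the model 5 genes were called higher, and PECAM1 and CDH5 were among those lost in both.

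Of 13 contractile and pericyte genes 1 rose and 1 fell, both smaller shares than over all features (26.3% and 13.4%). Without the late pressure hyper biopsy of animal 50, 4 rose. RGS5, a pericyte gene, was 1.94 to 4.88 (median 3.32) in late scar and 1.82, 2.03, 1.64 and 1.98 in control skin (1.46 ± 0.28, adjusted p = 0.000379), with 0.61 in animal 49 and 2.3 in animal 50. CNN1, calponin of smooth muscle, was -2.81 to 0.068 (median -2.12) in late scar and -0.70, 0.018, -0.46 and -0.57 in control skin (-1.39 ± 0.32, adjusted p = 0.00216), with the late pressure hyper biopsy of animal 49 at 0.07 above all controls. The RGS5 call was lost without the background cap (adjusted p = 0.303), with median centring (adjusted p = 0.111) and with the spike-in ratio in the model (adjusted p = 0.432).

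Some matrix genes rose in late scar, with larger differences in animal 50. Of 5 measured collagen chains 3 rose and 0 fell (median 1.5, with 0.52 in animal 49 and 2.54 in animal 50). COL5A1, a chain of the fibril-nucleating collagen V, was 1.63 to 2.4 in the 4 late biopsies of animal 49 and 3.59 to 4.07 in those of animal 50, against 1.0, 1.6, 0.40 and 1.75 in control skin. It was 3.38-fold higher (1.76 ± 0.42, adjusted p = 0.00238), but the left-side control of animal 50 was the lowest control by over 0.5 log2 units. COL5A2 (1.5 ± 0.46, adjusted p = 0.0145) and COL8A1, a short-chain collagen (1.56 ± 0.55, adjusted p = 0.0286), rose likewise. COL1A2, a chain of the main dermal collagen, was 2.67 to 6.21 (median 3.84) in late scar and 2.67, 3.8, 1.35 and 3.43 in control skin and did not pass (1.41 ± 0.66, adjusted p = 0.0956), with -0.13 in animal 49 and 2.95 in animal 50. COL1A2 passed without the late sham hyper biopsy of animal 49 (adjusted p = 0.0472) or its pressure hyper biopsy (adjusted p = 0.027). Without the left-side control of animal 50, 1 collagen gene was called, and without the background cap or with the spike-in ratio in the model 0 were, COL5A1 being at 1.04 (adjusted p = 0.141) and 0.09 (adjusted p = 0.929).

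Of 12 proteoglycan and hyaluronan genes 4 rose and 1, HAS3, fell (median 0.16), and of 10 matrix glycoproteins 3 rose and 0 fell (median 0.62), shares near the 26.3% of all features called higher. ASPN, the leucine-rich proteoglycan asporin, was 1.92 to 5.92 (median 3.29) in late scar and 0.71, 1.78, 0.37 and 2.05 in control skin (2.24 ± 0.51, adjusted p = 0.00178), again with 0.99 in animal 49 and 3.49 in animal 50. LUM, lumican, which spaces collagen fibrils, was 1.89 to 3.65 (median 3.08) in late scar and 1.92, 2.43, 0.90 and 2.31 in control skin (1.04 ± 0.31, adjusted p = 0.0122), and VCAN, the large proteoglycan versican, rose by 2.6-fold (adjusted p = 0.0105). DCN, decorin, was 1.05 to 3.03 (median 1.58) in late scar and 0.71, 1.56, -0.12 and 1.78 in control skin and did not pass (0.90 ± 0.40, adjusted p = 0.083), though it did without the control 49 left (adjusted p = 0.0421) or late pressure hyper 49 biopsy (adjusted p = 0.0467). POSTN, periostin, an adhesive glycoprotein of remodelling matrix, was 4.51 to 7.25 (median 6.35) in late scar and 4.02, 4.4, 3.27 and 4.67 in control skin (2.0 ± 0.44, adjusted p = 0.00137). TNXB, tenascin X, rose (0.99 in animal 49 and 1.25 in animal 50, adjusted p = 0.00865), and so did VTN, the plasma protein vitronectin (0.98 ± 0.20, adjusted p = 0.000721), which turned to -0.03 with median centring. Without the left-side control of animal 50, 1 of the 12 proteoglycan genes was called, and LUM, at 0.65 (adjusted p = 0.105), and VCAN, at 1.09 (adjusted p = 0.0684), were lost, as was TNXB, at 0.92 (adjusted p = 0.0558). With the spike-in ratio in the model ASPN was at 0.53 (adjusted p = 0.645) and POSTN at 0.85 (adjusted p = 0.405).

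SFRP4, a secreted WNT antagonist and the largest rise among genes with a symbol, was 2.0 to 4.41 (median 2.92) in late scar and -0.079, 0.99, 0.011 and 1.85 in control skin. SFRP4 was 5.43-fold higher (2.44 ± 0.53, adjusted p = 0.00112), without overlap and with 2.73 in animal 49 and 2.15 in animal 50. DKK2, another WNT antagonist, fell (-1.78 ± 0.37, adjusted p = 0.000759). ITGB1, the common integrin chain that binds matrix, was -0.13 to 1.49 (median 0.48) in late scar and -0.50, -0.45, -0.65 and -0.32 in control skin (1.1 ± 0.18, adjusted p = 0.000121), without overlap. TGFB1, the main fibrogenic cytokine, was -1.03 to 0.39 (median -0.63) in late scar and -1.9, -1.39, -1.65 and -1.59 in control skin (1.1 ± 0.23, adjusted p = 0.000827), without overlap, and the inhibitor SMAD7 fell by 1.51-fold (adjusted p = 0.0212). Over the 18 TGF-beta pathway genes 3 rose and 2 fell, both smaller shares than over all features (26.3% and 13.4%), and 0 fell without control 49 right or control 50 left. FKBP10, a collagen chaperone, was 1.24 to 3.09 (median 2.63) in late scar and 1.22, 1.42, 0.37 and 0.68 in control skin (1.44 ± 0.34, adjusted p = 0.00261). Of 16 proteases and inhibitors 7 rose and 0 fell (median 0.82), among them MMP14 (1.5 ± 0.43, adjusted p = 0.00948, 7 late arrays), and with the protease activators PLAU (0.97 ± 0.27, adjusted p = 0.0071) and PLAT (1.13 ± 0.40, adjusted p = 0.0303). For PLAU, only 1 of 2 probes pointed up. MMP9, a gelatinase of myeloid cells, was 3.78, 4.02 and 2.46 in 3 late biopsies of animal 49 and -0.06 to 1.29 in the other 5, against 0.26, 0.036, 0.14 and -0.47 in control skin (1.66 ± 0.61, adjusted p = 0.0356), and lost its call in 8 of 12 fits without 1 array (adjusted p 0.0586 to 0.0857). The protease count was 1 without control 50 left, 3 without control 49 right or late pressure hypo of animal 50, 4 without late sham hyper of animal 49 or late pressure hyper of animal 50, and 0 with median centring. Without control 50 left, MMP14 (adjusted p = 0.0541) and PLAT (adjusted p = 0.134) lost their calls.

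**Figure D4:**
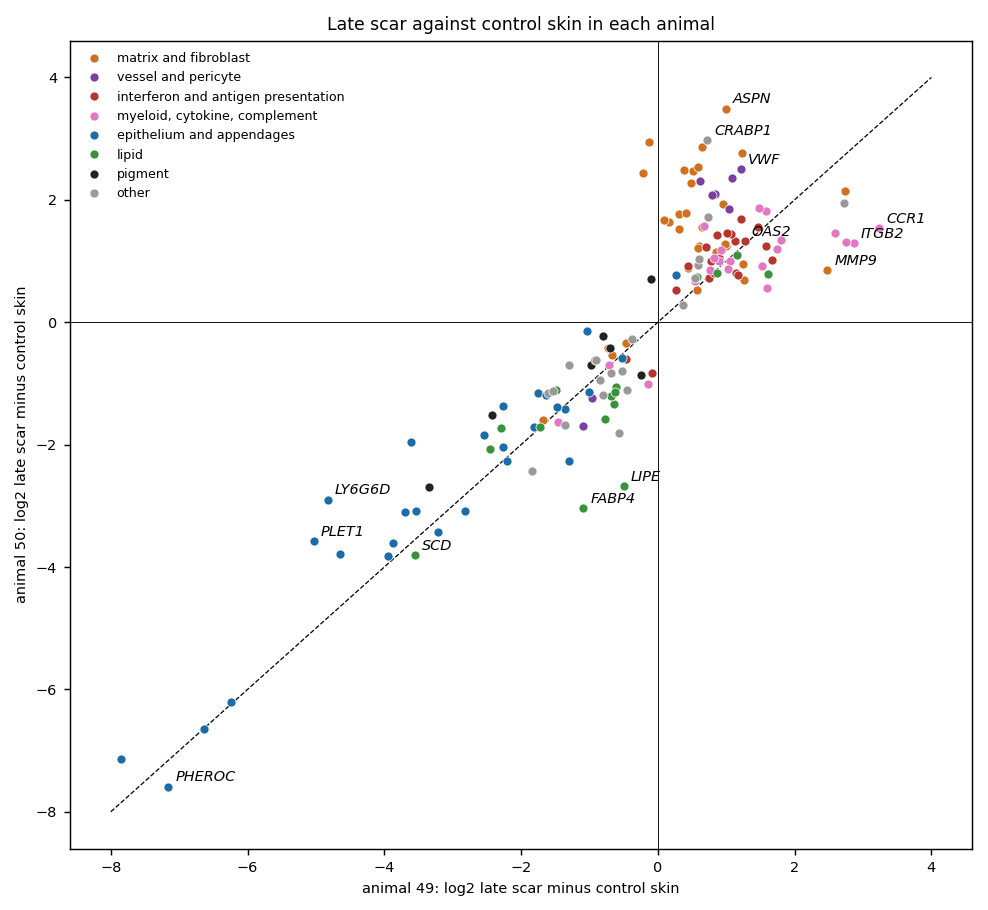
Difference of late scar minus control skin in animal 50 (y axis) against that in animal 49 (x axis), both in log2 units, for the genes described, coloured by gene group; each point is 1 gene, 4 late and 2 control biopsies per animal, and the dashed line marks equal differences. KRT31 (-3.95 and -3.83) lies near the line, matrix genes such as ASPN (0.99 and 3.49) above it, and myeloid genes such as CCR1 (3.23 and 1.53) below it.

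The difference between the animals did not pass its own test. With the late effect fitted in each animal, 0 of 18770 features had an adjusted p under 0.05 for the difference between animals by limma (lowest adjusted p 0.212), and 711 had an unadjusted p under 0.05. Without the late pressure hypo biopsy of animal 49, 12 features passed, without the left-side control of animal 49, 16, and without the left-side control of animal 50, 1. FKBP10 had the lowest adjusted p of genes with a symbol (2.1 ± 0.37, adjusted p = 0.397), and the difference was 2.21 ± 0.48, adjusted p = 0.711, for COL5A1 and 2.49 ± 0.80, adjusted p = 1, for ASPN. Within animal 49 alone 196 features were called (20 higher, 176 lower), and within animal 50 alone 3022 (2054 higher, 968 lower).

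Of 17 measured cell cycle genes 5 fell, 8 without control 50 right, and 0 rose (median -0.33). TOP2A, the topoisomerase of dividing cells, was -0.99 to 0.020 (median -0.66) in late scar and 0.87, 0.73, 1.04 and 0.43 in control skin (-1.39 ± 0.19, adjusted p = 1.43e-05), and MCM3, of the replication helicase, was -0.21 to 0.42 (median 0.11) in late scar and 0.88, 0.86, 1.15 and 0.50 in control skin (-0.76 ± 0.16, adjusted p = 0.00109). Both had every late array below every control. CCNB1, the mitotic cyclin, fell by 2-fold (adjusted p = 0.0045), and CDK4 by 1.85-fold (adjusted p = 0.00299). Of 34 cytosolic ribosomal protein genes 12 fell and 1 rose (median -0.25), with small sizes such as -0.76 for RPS3A (adjusted p = 0.000166) and -0.66 for RPL7 (adjusted p = 0.000119). The count of ribosomal genes called lower was 6 without the background cap, 25 with processed signals and 34 with median centring, and the riser, RPL13A (0.32), turned to -0.90.

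Of 14 measured immediate early and heat shock genes 4 rose and 1 fell (median 0.20), where 26.3% of all features were higher and 13.4% lower. Of 19 metallothionein and antioxidant genes 5 fell and 3 rose (median -0.27). PRDX6, a peroxiredoxin, was -1.32 to -0.56 (median -1.07) in late scar and 0.69, 0.35, 1.12 and -0.051 in control skin (-1.52 ± 0.21, adjusted p = 1.52e-05), and NQO1, a quinone reductase, was -0.45 to 0.14 (median -0.19) in late scar and 1.6, 1.1, 1.38 and 0.59 in control skin (-1.33 ± 0.15, adjusted p = 3.5e-06). Neither gene overlapped between the groups. CAT, catalase, was -3.92 to -2.04 (median -3.58) in late scar and -2.19, -2.25, -2.43 and -1.58 in control skin (-1.18 ± 0.27, adjusted p = 0.00198), and the 2 late arrays within the control range, pressure hyper and sham hypo of animal 49, were also high in FABP4 and LIPE. GSTA1, GPX3 and SELENOP rose by 1.76-, 1.69- and 1.55-fold (adjusted p = 0.0121, 0.035 and 0.0448), and all 3 turned below 0 with median centring (-0.21, -0.52 and -0.60). Without control 49 right, control 50 left or late pressure hypo of animal 50, 1 gene of the list was called higher.

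Of 19 retinoid, steroid and stress hormone genes 5 rose and 2 fell, where 26.3% of all features were higher and 13.4% lower. HSD11B1, the enzyme that activates cortisol, was -2.06 to -1.22 (median -1.75, 7 arrays) in late scar and 0.38, 0.19, 0.36 and 0.76 in control skin, a 4.32-fold lower level (-2.11 ± 0.19, adjusted p = 2.66e-07). CRABP1, which binds retinoic acid, was 1.05 to 4.93 (median 3.88) in late scar and 1.36, 1.97, 1.04 and 2.07 in control skin (1.84 ± 0.46, adjusted p = 0.00347), and its lowest late values were both hyper biopsies of animal 49 (1.89 and 1.05). ESR1, the estrogen receptor, was 0.65 to 2.22 (median 1.14) in late scar and 0.37, 0.068, 0.17 and -0.64 in control skin (1.22 ± 0.25, adjusted p = 0.000689), without overlap. CRABP1 and ESR1 lost their calls with median centring (adjusted p = 0.13 and 0.115) and with the spike-in ratio in the model (adjusted p = 0.83 and 0.527).

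Skeletal muscle RNA stood out on 1 late array. Relative to the control mean, the median of 36 muscle genes was 5.76 in the late pressure hyper biopsy of animal 49, 0.26 to 1.69 in the other 7 late biopsies and -0.084 to 0.15 in control skin. MYH1, a fast myosin chain, was 3.45 in that biopsy and -2.33 to -0.34 in the other late biopsies, against -2.88, -2.76, -2.99 and -3.26 in control skin (2.33 ± 0.88, adjusted p = 0.0392). Of the 36 genes 6 rose and 0 fell, both smaller shares than over all features (26.3% and 13.4%). Even so, 35 of the 36 differences were above 0, with a median of 1.36. Late and control arrays did not overlap for 20 of the 36 genes, against 16% of all features. MYH1 was not called without the late pressure hyper biopsy of animal 49 (1.62, adjusted p = 0.0901), where the list's median was 0.78 and 4 genes were called. It also lost its call in 8 of the other 11 fits without 1 array, and the number of muscle genes called ran from 2, without control 49 right, 49 left or 50 left or either hypo biopsy of animal 50, to 28, without the late pressure hyper biopsy of animal 50. The late pressure hyper biopsy of animal 49 also had the highest CNN1 of the late biopsies, and a link between its muscle signal and CNN1 was not tested. The part of its muscle signal in the other results was not tested beyond leaving the biopsy out, where 4916 features were higher and 2439 lower.

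Late scar was then set against the earlier phases, to place these differences in the course of the scar. Sham biopsies only were used against early scar, which had no pressure arm. Of 18765 features 3733 differed between late and early sham scar (19.9%), 1811 higher (9.65%) and 1922 lower (10.2%). Of 26 interferon response genes 10 rose and 0 fell, of 15 class I genes 6 rose and 0 fell, and of 8 class II genes 0 rose and 0 fell. IFIT1 was higher by 1.56 ± 0.20, adjusted p = 0.000325, and PSMB9 by 1.2 ± 0.27, adjusted p = 0.0061. CCL19 (1.18 ± 0.31, adjusted p = 0.0123) and CXCL12 (1.03 ± 0.30, adjusted p = 0.0238) were higher too. Among matrix lists, 6 of 12 proteoglycan genes, 4 of 4 collagen processing enzymes and 2 of 5 collagen chains fell and 0 rose, whereas of 10 matrix glycoproteins 4 fell and 2 rose and of 16 proteases and inhibitors 3 fell and 1 rose. ASPN differed by -2.45 ± 0.51, adjusted p = 0.00351, VCAN by -1.79 ± 0.41, adjusted p = 0.00591, COL5A2 by -1.81 ± 0.46, adjusted p = 0.0115, and ITGB1 by -1.42 ± 0.18, adjusted p = 0.000325. Without the background cap 11 features were called in this comparison, with slide in the model 1086, without the late sham hyper biopsy of animal 50, 2147, and without its sham hypo biopsy, 2333. Of the hair follicle, cholesterol and pigment genes 0 of 9, 0 of 15 and 0 of 20 differed between late and early scar. Among other lists with members below control skin, 5 of 21 epithelial identity genes rose and 1 fell. For 9 keratinocyte differentiation genes 2 rose and 0 fell. For 12 sweat and apocrine genes 1 rose and 0 fell, and for 26 sebaceous and fatty acid genes 3 rose and 2 fell. In the sweat and sebaceous lists the shares that rose were near the 9.65% of all features. Their shares that fell were below the 10.2% of all features.

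**Figure D5:**
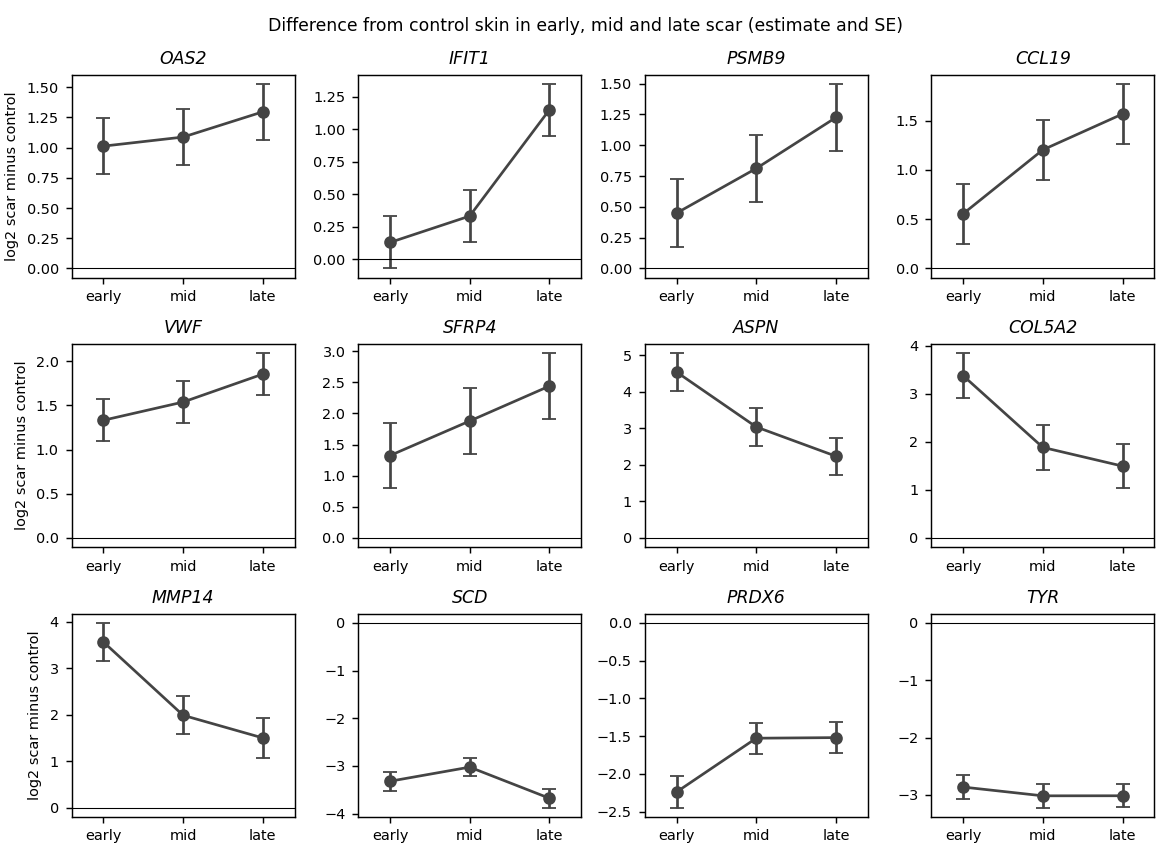
Estimated difference from control skin ± SE, in log2 units, for 12 genes in early, mid and late scar (x axis). The 3 differences of a gene share the same 4 control biopsies. IFIT1, PSMB9 and CCL19 are highest in late scar, ASPN, COL5A2 and MMP14 are lowest there, and SCD and TYR stay more than 2 log2 units below control skin in all 3 phases.

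Against mid scar, 1 of 18765 features passed (0.00533%), with 2158 at an unadjusted p under 0.05, and 0 to 30 passed with 1 array left out, the most without the late sham hyper biopsy of animal 49. Within late scar, pressure-treated and sham-treated biopsies differed in 0 of 18765 features by limma, with 1059 at an unadjusted p under 0.05, a lowest adjusted p of 0.44, 4 calls with the scanner program's processed signals and 0 to 48 with 1 array left out, the most without the late pressure hyper biopsy of animal 50. Late hyper and late hypo biopsies differed in 942 features (5.02%), 95 higher in hyper (0.506%) and 847 lower (4.51%). That count was 31 without the sham hyper and 103 without the pressure hyper biopsy of animal 49, 228 without the sham hypo, 468 without the pressure hypo and 1474 without the sham hyper biopsy of animal 50, and 165 without the background cap. Of the genes described here TYR and IFNAR2 passed.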

How the data were processed

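RNA of 28 skin and scar biopsies was hybridised to 2-colour Agilent pig arrays, with the biopsy in Cy5 and a universal pig reference RNA in Cy3 on every array, per the labels. The deposited scanner files hold spot intensity from Agilent Feature Extraction 10.7.1.1, per the submitters' processing notes. The deposited value table holds log2 ratios, which equal log2 of the scanner program's processed Cy5 over Cy3 signal, and was used as a check. From the median intensity of each spot, normexp background correction (offset 50, local backgrounds capped at the 99th percentile of an array and channel) and loess within each array were run in limma 3.58.1 (R 4.3.3). Control spots had weight 0 and outlier-flagged spots were missing, so that some genes have 7 late values. Spots of a probe were averaged, and the probe of highest mean Cy5 stood for a gene.

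Probes with Cy5 well above background on at least 4 arrays were kept. One fit over 28 arrays held a mean per group and the animal as a block, with moderated tests and Benjamini-Hochberg adjustment over all 18765 features. The pairing comes from the animal number in the titles. Gene symbols came from RefSeq accessions (assembly Sscrofa11.1) for 2646 tested features, and the other features are not named. No 2 arrays held identical values, and the small number of arrays limits precision. The test was checked on simulated data.

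Members and gene lists were chosen with earlier results of these data known. Genes named were the 12 highest and 12 lowest called symbols, up to 6 members of lowest p in each list, and members that passed against their list. Some genes that this rule names are not reported here. CDH1, FASN, FABP4, DCT and MITF were chosen after their values were seen. Alternatives were other background corrections, scalings and filters, slide as a block, subsets of late scar, and leaving out each array.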

Additional observations from a re-analysis of the deposited data

Results flagged for a closer look

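In 308 groups of 4 to 8 arrays, 16 genes had 1 array far from the others by Dixon's test at the 95% level. Chance flags about 1 in 20 groups, which is close to the share flagged here. In late scar, the sham hyper biopsy of animal 50 stood above the next array for LY6G6D (4.09 against 0.40), PLET1 (2.56 against 0.43) and KRT31 (0.85 against 0.37). The pressure hyper biopsy of animal 49, the one with high muscle signal, stood above the next array for MYH1 (3.45 against -0.34), the glutathione peroxidase GPX2 (1.53 against 0.35) and RLN2 (0.36 against -0.06). The pressure hypo biopsy of animal 50 was at 2.38 for PECAM1 (next 1.59) and at 2.38 for CDH5 (next 1.24). Single late arrays also stood above the rest for the hyaluronidase HYAL2 (1.96 in sham hypo of animal 49, next 0.96), AQP5 (1.36 in sham hypo of animal 50, next 0.59) and CDK4 (1.33 in pressure hyper of animal 50, next 0.62).

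Among control biopsies, the right side of animal 50 was below the others for SQLE (0.69, next 1.25) and MSMO1 (0.95, next 1.63) and above them for IFNAR2 (-1.59, next -2.45). The left side of animal 50 was above them for PLIN2 (2.13, next 1.73) and the right side of animal 49 for FABP4 (4.57, next 3.93).

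Late hyper and late hypo scar differed in IFNAR2 (-1.19, hyper lower, adjusted p = 0.0077 by limma) and in TYR (0.97, hyper higher, adjusted p = 0.0233 by limma), the 2 genes of those described that passed this test.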

How the results depend on the processing

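Late scar against control skin gave 7457 calls, 4942 higher and 2515 lower, and the total moved to 196 in animal 49 alone (20 higher, 176 lower), 3022 in animal 50 alone (2054 and 968), 4518 in hyper scar alone (2724 higher), 3855 over features detected on all 12 arrays (2923 and 932) and 2834 with the spike-in ratio in the model (1767 and 1067). Median centring gave 1404 higher and 5669 lower, and the cause of that shift was not tested. Leaving out 1 array gave 5357 to 7651 calls in all, 3498 to 5111 higher and 1859 to 2571 lower, with the fewest in all without control 50 left. The replicate block was the animal, which late and control biopsies shared, and without it 7417 features were called. Deviations of late and control arrays of the same animal had correlations of -0.161 to 0.191, and those of different animals -0.137 to 0.201.

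Late against early scar (3733) gave 11 calls without the background cap, 5696 with median centring, 1086 with slide in the model, and 2147 to 3883 when 1 array was left out. Hyper against hypo (942) gave 165 without the cap, 2303 with median centring, 468 with an offset of 10, and 31 to 1474 when 1 array was left out. Late against mid scar (1) gave 0 without the cap, with an offset of 10 and with the median over probes, 2 with slide in the model, 11 with processed signals, and 0 to 30 when 1 array was left out. Pressure against sham (0) gave 4 with processed signals and 0 to 48, the most without late pressure hyper of animal 50. The difference between the animals (0) gave 1 with no filter on dim probes and 0 to 16, the most without control 49 left.

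The log2 differences below changed sign. Within slide 2 the difference turned for COL8A1 -0.19, MMP2 -0.20, CD34 -0.0081, FASN 0.17, FABP4 0.15, LIPE 0.16 and SOD1 0.30. Within slide 3 the difference turned for MMP9 -0.32. Within slide 4 the difference turned for CNN1 0.53, DKK2 0.22, FABP4 0.068, LIPE 1.05, PNPLA2 0.37, PLIN1 0.59, RPL13A -0.058, CAT 0.38 and GPX2 0.23. With the median over the probes of a gene the difference turned for P4HA1 -0.037 and JAK1 -0.11. With median centring the difference turned for VTN -0.034, MMP2 -0.18, TIMP1 -0.040, DPP4 -0.34, IRF9 -0.015, IFNGR1 -0.077, JAK1 -0.41, SLA-3 -0.028, SLA-5 -0.13, CFB -0.15, SERPING1 -0.091, NPC2 -0.21, ACSL5 -0.36, RPL13A -0.90, GPX3 -0.52, GSTA1 -0.21 and SELENOP -0.60. With the spike-in ratio in the model the difference turned for MMP2 -0.24 and GSTA1 -0.082. With processed signals the difference turned for IVL 0.48. A slide held 1 late and 1 or 2 control arrays, and 96.6%, 98.9% and 95.3% of called features kept their direction within slides 2, 3 and 4. These arrays took part in making the calls, which favours agreement. The shares are therefore no separate check and cannot show whether slide affects the results. The causes were not tested. A probe not well above background on any late array has only a bound there. The spike-in ratio, the restriction to features detected on all 12 arrays and the fit without the 2 late arrays with the fewest detected probes were chosen after seeing the data.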
